A study of Homo sapiens with 6 samples.

Results

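A set of 6 genes of organic osmolyte handling, NFAT5, SLC5A3, SLC6A12, SLC6A6, SLC38A2 and AKR1B1, were followed in MHCC97H cells with and without a DDX17 knockout. They were taken by gene name from a table of 58302 genes, 15620 of which were abundant enough to test, and all 6 were among those. They were picked because of how SLC5A3 and its neighbours in the pathway behaved in these same libraries, so their levels and fold changes between the groups are given as a description and carry no test. The DDX17_KO group held 3 libraries of an MHCC97H line in which DDX17, an RNA helicase gene, had been targeted with CRISPR/Cas9, and the control group held 3 libraries of a non-target line made with the same system. MHCC97H is a human hepatocellular carcinoma line, and both lines were grown in DMEM with fetal bovine serum. The labels do not say whether either line was 1 clone, or whether the libraries of a group came from separate cultures, so SDs and p-values measure the spread between these libraries, which may be technical. The values of a group are listed for its replicates 1, 2 and 3 in that order.

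Cells that lose water to a salty or concentrated surrounding take up or make small neutral molecules, the organic osmolytes, to restore their volume without raising their salt content. NFAT5, also called TonEBP, is the transcription factor that drives this response in kidney and other tissues. Its known targets include the transporters of myo-inositol, betaine and taurine and the enzyme that makes sorbitol. Hepatocytes use betaine and taurine in the same way, and myo-inositol also feeds phosphoinositide synthesis. DDX17 and its paralogue DDX5 have been described as acting on NFAT5 in breast cancer cells.

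DDX17 itself stood at 22.4, 7.64 and 19.1 FPKM (fragments per kilobase of transcript, scaled to the library's depth) in DDX17_KO, against 45.7, 41.4 and 43.9 FPKM in controls, so every knockout library was below every control library (log2 fold change -1.48, limma adjusted p = 0.282). Estimated depth was 5350000 to 10620000 fragments per DDX17_KO library and 12340000 to 14550000 per control library, with DDX17_KO replicate 2 the shallowest. The libraries numbered 2 stood apart in both groups. Across genes, the deviation from the group mean had a Spearman's rho with transcript GC content of 0.533 in DDX17_KO replicate 2 and 0.584 in control replicate 2, against -0.534 to -0.32 in the other libraries. The deviations of a gene sum to 0 within a group, so these opposite signs are not independent of each other. Of 12 liver epithelial markers, KRT8 and KRT18 were abundant, and the other 10, ALB and HNF4A among them, stayed under 0.5 FPKM in every library. The 6 red cell markers summed to 0.0211 to 0.673 FPKM in DDX17_KO and 54.0 to 69.6 FPKM in controls, with HBB and HBA2 listed at 0 in all 3 knockout libraries. The 6 endothelial markers summed to 0.273 to 0.543 FPKM in DDX17_KO and 0.562 to 0.786 FPKM in controls. Among them CDH5 alone separated the groups, at 0.111 to 0.254 FPKM in DDX17_KO and 0.424 to 0.610 FPKM in controls. PECAM1, TEK, VWF, KDR and CLDN5 each had their highest value in a DDX17_KO library. That value was 0.215 FPKM for PECAM1 and at most 0.0446 FPKM for the others, so these levels are near 0. The 8 fibroblast markers summed to 50.5 to 91.9 FPKM in DDX17_KO and 40.2 to 48.5 FPKM in controls, with COL3A1 the largest part in each library, while COL1A1 and PDGFRB were lower in every DDX17_KO library than in any control. No white blood cell marker passed 0.5 FPKM in any library. The part of these differences in the results was not tested, and in bulk RNA fewer cells of a type and less RNA per cell cannot be told apart.

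SLC5A3 lies inside another gene, which bears on how its level can be read. Its single annotated transcript runs on the plus strand of hg38 chromosome 21 from 34073570 to 34106262 (ENSG00000198743), with exon 1 from 34073570 to 34073745 and exon 2, of 11400 bases, from 34094863 to 34106262. MRPS6, which encodes a protein of the mitochondrial ribosome, covers 34073224 to 34143034 on the same strand. In GENCODE release 29, 2 of the 5 MRPS6 transcripts end their exon 1 on the same base as SLC5A3, and 2 MRPS6 exons lie within exon 2 of SLC5A3. RefSeq gives both genes an identical promoter window, shown here up to the base before the first transcript start annotated inside it (GRCh38.p14, chr21:34073328-34073522, plus strand, 195 bases, 88.2% G or C). The stretch lies downstream of the outermost MRPS6 start annotated in GENCODE, so it is within the bounds of that gene.
SLC5A3 and MRPS6 shared RefSeq window: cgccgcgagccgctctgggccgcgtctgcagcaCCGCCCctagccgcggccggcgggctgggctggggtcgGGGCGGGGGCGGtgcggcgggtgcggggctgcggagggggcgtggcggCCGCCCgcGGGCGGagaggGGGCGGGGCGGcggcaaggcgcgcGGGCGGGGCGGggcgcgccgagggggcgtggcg
Capitals mark GGGCGG and its reverse complement CCGCCC, the GC box letters known to bind SP1, which occur 9 times here. Of all 300-base promoter windows in the RefSeq table, 45.0% held at least 1. That share gives no background for the number of boxes in a stretch. The GC box was chosen after the sequence had been seen. The letters TGGAAA, the fixed core of the NFAT5 binding element, were searched on both strands. They were in 20.7% of the 35116 windows and in none of those of SLC5A3 or AKR1B1. The window of SLC38A2 held 1 match, on the strand opposite to the gene. It begins 32 bases past the RefSeq transcript start, which lies inside the GENCODE bounds of the gene. The match is shown with its surroundings because it was the only match among the 3 of the 6 genes with an entry (GRCh38.p14, chr12:46372726-46372751, minus strand).
SLC38A2 match: ttagaacgccTTTCCAgtactgctag
Capitals mark the reverse complement of the core. A match describes the letters and shows no binding.

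NFAT5, the transcription factor of the response, was a low-level transcript. It had 2.26, 1.36 and 3.03 FPKM in DDX17_KO, against 1.49, 0.646 and 1.12 FPKM in controls. The groups overlapped by 1 library, since DDX17_KO replicate 2 lay under control replicate 1. The mean was 2.21 ± 0.833 FPKM in DDX17_KO and 1.08 ± 0.424 FPKM in controls (SD, n = 3 each). On the log2(FPKM + 1) scale, which understates the change of low genes, NFAT5 gave a fold change of 0.61 ± 0.25 (SE). NFAT5 has the longest transcript of the set, 14219 bases at 40.4% GC, and after a correction of each library for GC content and transcript length its fold change was 0.14. A pseudocount of 0.01 in place of 1 gave 1.03. NFAT5 covers chromosome 16 from 69565094 to 69704666 on the plus strand (ENSG00000102908). The intronic transcript AC009032.1 on the same strand had 2.62, 0.434 and 1.70 FPKM in DDX17_KO and 1.505, 0.334 and 0.478 FPKM in controls, which gave 0.50 on the log2 scale and an adjusted p of 0.514 in limma. With single libraries left out, the difference ran from 0.21 to 0.88.

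SLC5A3, the sodium-coupled carrier that brings myo-inositol into the cell, had the widest spread of the set among the knockout libraries, as a ratio of highest to lowest. It stood at 24.0, 4.75 and 50.02 FPKM in DDX17_KO, against 7.67, 2.85 and 5.77 FPKM in controls. DDX17_KO replicates 1 and 3 were 3.13 and 6.52 times the highest control, while DDX17_KO replicate 2 lay among the controls, so the groups overlapped. With 1 transcript of 11.576 kilobases, these values correspond to about 2952, 294 and 4754 fragments in DDX17_KO and 1096, 459 and 972 in the controls. Counting error is therefore small beside the gap between the knockout libraries.

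The mean of SLC5A3 was 26.3 ± 22.7 FPKM in DDX17_KO and 5.43 ± 2.43 FPKM in controls (SD, n = 3 each), a ratio of means of 4.83. It gave a log2 fold change of 1.67 ± 0.73 (SE). Without both libraries numbered 2 it was 2.22. Without DDX17_KO replicate 2 it was 2.55, and without DDX17_KO replicate 3, the highest library, it was 0.98. Corrected for GC content and transcript length it was 1.23. The knockout libraries differed by up to 10.5 times among themselves, and the control libraries by up to 2.69 times. The SD of SLC5A3 on the log2 scale within DDX17_KO was 1.61, and 0.23% of tested genes had a larger one, where the median gene had 0.31. Within controls the SD was 0.60, with 4.07% of tested genes above it and a median of 0.20.

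**Figure D1:**
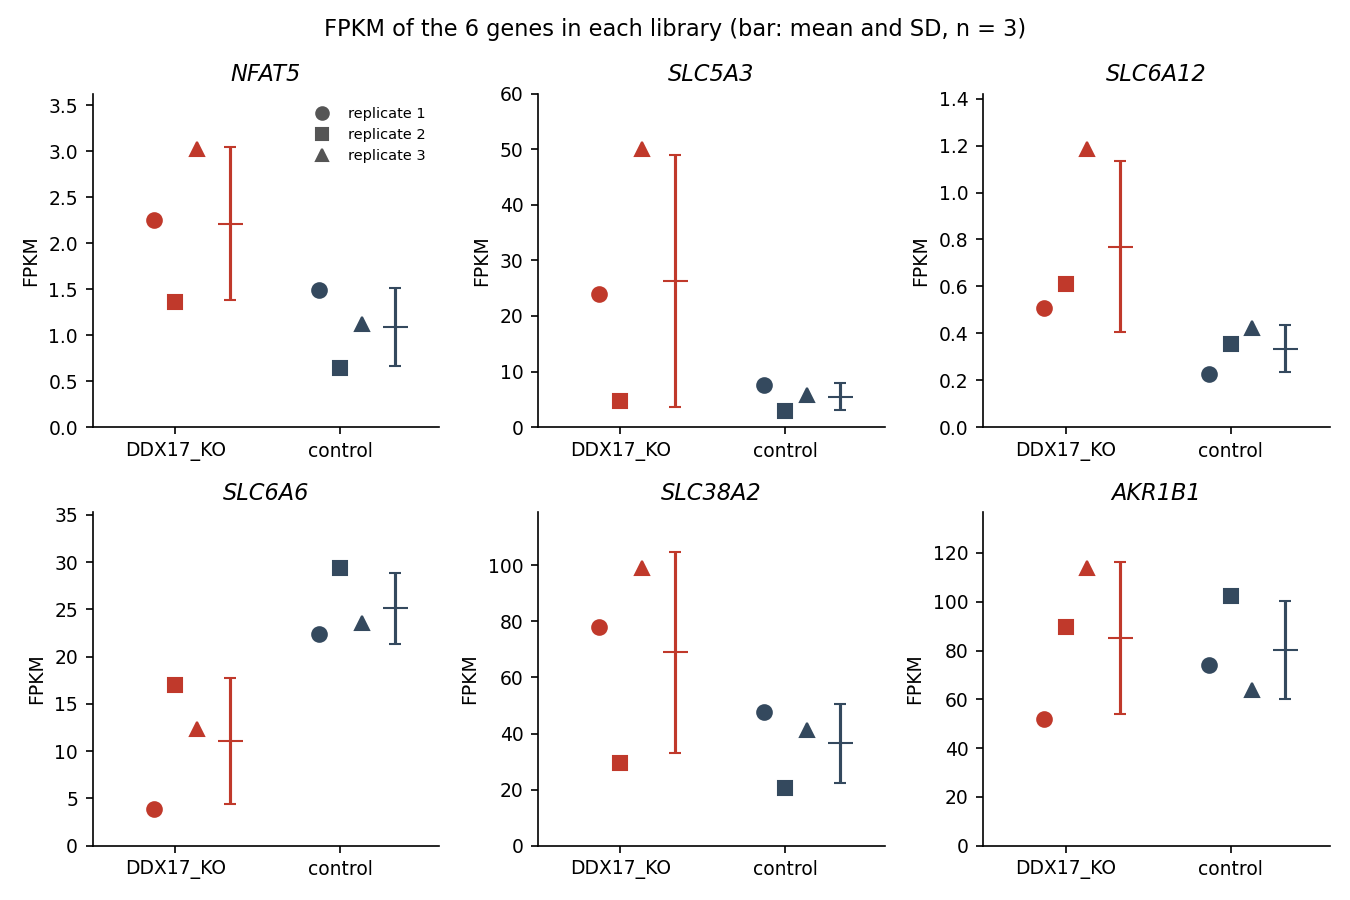
FPKM of NFAT5, SLC5A3, SLC6A12, SLC6A6, SLC38A2 and AKR1B1 on linear axes from 0, with DDX17_KO libraries left of control libraries, marker shapes for replicate numbers, and a bar for the mean and SD of 3 libraries. SLC6A12 is higher and SLC6A6 lower in all 3 DDX17_KO libraries than in any control, and SLC5A3 spans 4.75 to 50.02 FPKM among the knockout libraries.

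MRPS6, which shares its first splice site with SLC5A3 in some transcripts, did not follow it library by library. MRPS6 had 13.7, 13.6 and 27.9 FPKM in DDX17_KO, against 11.97, 14.2 and 12.6 FPKM in controls. It was high in DDX17_KO replicate 3 alone, the library with the most SLC5A3, and in DDX17_KO replicate 1 it lay within the control range while SLC5A3 was 3.13 times the highest control. By limma MRPS6 differed by 0.41 ± 0.29 (SE) on the log2 scale with an adjusted p of 0.495, and the 17 alternative settings gave an adjusted p between 0.2 and 0.903. Without DDX17_KO replicate 3 the difference was 0.08. The ratio of SLC5A3 to MRPS6, both in FPKM, was 1.75, 0.348 and 1.79 in DDX17_KO, against 0.641, 0.20 and 0.459 in controls. No source used here states how fragments in the shared exons were divided between these genes, so both levels are uncertain there. The long noncoding transcript AP000317.2, which also starts in the shared exon, stayed between 0 and 0.632 FPKM and was not tested.

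**Figure D2:**
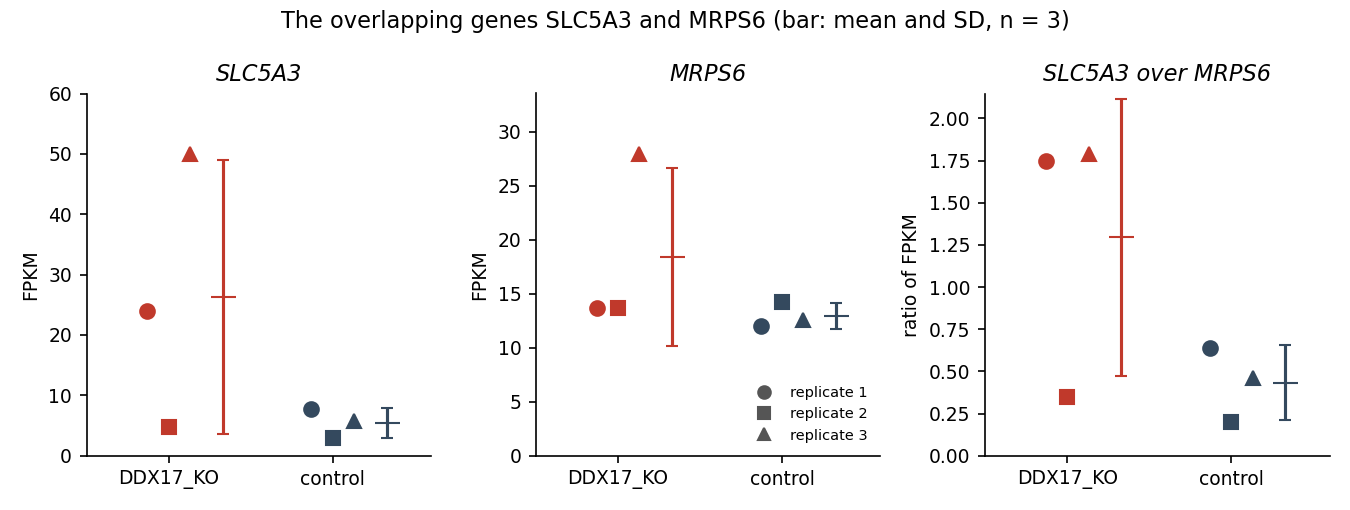
SLC5A3 and MRPS6 in FPKM and the ratio of their FPKM, on linear axes from 0, with DDX17_KO libraries left of control libraries and a bar for the mean and SD of 3 libraries. The ratio is 1.75 and 1.79 in DDX17_KO replicates 1 and 3, and 0.348 in DDX17_KO replicate 2, within the control range of 0.20 to 0.641.

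The 5 tested genes whose values lay closest to those of SLC5A3 over the 6 libraries were UTRN, COL12A1, ROCK2, MYCBP2 and NIPBL. Likeness was the root mean square difference in log2(FPKM + 1) after each gene was centred on its own mean, searched among 13549 genes, where the median gene stood at 1.35. UTRN, the utrophin gene, differed by 0.30 and COL12A1, a collagen gene, by 0.32. ROCK2, a kinase of the cytoskeleton, differed by 0.33, MYCBP2, a ubiquitin ligase gene, by 0.34 and NIPBL, the cohesin loader gene, by 0.37. UTRN had 12.9, 1.2 and 14.6 FPKM in DDX17_KO and 3.28, 1.03 and 1.79 FPKM in controls, the same order of libraries as SLC5A3 in the knockout. All 5 had an annotated transcript of 8292 to 14736 bases, as SLC5A3 has, while 5.36% of tested genes had one of at least 8292 bases and the median gene had 2633. Without the libraries numbered 2, only UTRN and COL12A1 remained among the closest 5, beside AKR1C1 and the very short RNU7-71P and MIR196A2. Of the other osmolyte genes, SLC38A2 was closest to SLC5A3 at 0.60, followed by NFAT5 at 0.90 and SLC6A12 at 1.12, with AKR1B1 at 1.36 and SLC6A6 at 2.01.

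**Figure D3:**
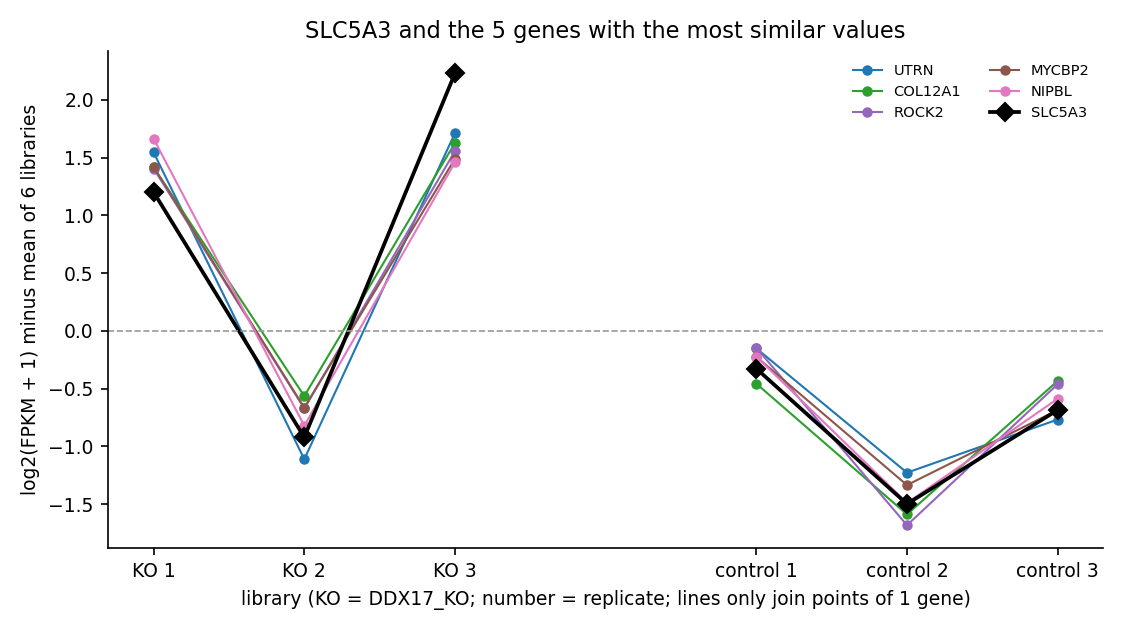
log2(FPKM + 1) minus the mean over the 6 libraries for SLC5A3 (black) and the 5 most similar genes, for DDX17_KO replicates 1 to 3 and then control replicates 1 to 3; lines only join the points of 1 gene. In each of these genes the library numbered 2 is the lowest of its group in both groups.

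SLC6A12, the carrier of betaine and GABA called BGT1, was near the lower limit of what was tested. It had 0.508, 0.612 and 1.19 FPKM in DDX17_KO, against 0.226, 0.353 and 0.424 FPKM in controls. Every knockout library lay above every control library. These values rest on 3.27 to 9.73 fragments per kilobase of transcript in DDX17_KO and 2.79 to 6.16 in controls, so counting error is a large part of each. The mean was 0.768 ± 0.365 FPKM in DDX17_KO and 0.334 ± 0.0999 FPKM in controls (SD, n = 3 each), a ratio of means of 2.30. It gave a log2 fold change of 0.39 ± 0.19 (SE), 0.66 after the correction for GC content and length, and 1.12 with a pseudocount of 0.01. Without DDX17_KO replicate 3 it was 0.23. SLC6A12 covers chromosome 12 from 190077 to 214570 on the minus strand (ENSG00000111181), and the antisense transcripts within it were at 0 in all 6 libraries.

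SLC6A6, the taurine carrier TauT, lay in the opposite direction to the inositol and betaine carriers. It had 3.87, 17.0 and 12.3 FPKM in DDX17_KO, against 22.4, 29.4 and 23.6 FPKM in controls. All knockout libraries were below all controls, and DDX17_KO replicate 1 was far below the other knockout libraries. The mean was 11.1 ± 6.66 FPKM in DDX17_KO and 25.2 ± 3.75 FPKM in controls (SD, n = 3 each), a ratio of means of 0.44. It gave a log2 fold change of -1.30 ± 0.45 (SE), and -0.75 without DDX17_KO replicate 1. The correction for GC content and length left it at -1.23. SLC6A6 covers chromosome 3 from 14402576 to 14489349 on the plus strand (ENSG00000131389). GRIP2, which overlaps its end on the other strand, did not exceed 0.0636 FPKM in any library.

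SLC38A2, known as SNAT2, carries small neutral amino acids into the cell with sodium, among them amino acids that serve as osmolytes before the slower ones accumulate. It had 78.2, 29.4 and 99.2 FPKM in DDX17_KO, against 47.5, 20.7 and 41.3 FPKM in controls. DDX17_KO replicates 1 and 3 lay above all controls, and DDX17_KO replicate 2 lay among them. The mean was 68.9 ± 35.8 FPKM in DDX17_KO and 36.5 ± 14.0 FPKM in controls (SD, n = 3 each), with a log2 fold change of 0.81 ± 0.49 (SE). It was 1.33 without DDX17_KO replicate 2, 0.47 without DDX17_KO replicate 3 and 0.46 without control replicate 2. SLC38A2 covers chromosome 12 from 46358189 to 46372867 on the minus strand (ENSG00000134294), where the antisense transcript AC025031.2 reached 0.298 FPKM in DDX17_KO and 0.646 FPKM in controls.

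AKR1B1, aldose reductase, which turns glucose into sorbitol, was the most abundant of the set. It had 52.0, 89.5 and 114 FPKM in DDX17_KO, against 74.3, 102 and 63.6 FPKM in controls. The groups overlapped fully, with both the lowest and the highest library in DDX17_KO. The mean was 85.1 ± 31.2 FPKM in DDX17_KO and 80.1 ± 20.01 FPKM in controls (SD, n = 3 each). It gave a log2 fold change of 0.04 ± 0.32 (SE). Its sign turned when single libraries were left out. Leaving out DDX17_KO replicate 3 gave -0.20, leaving out DDX17_KO replicate 2 gave -0.03, and leaving out control replicate 3 gave -0.11. AKR1B1 covers chromosome 7 from 134442350 to 134459284 on the minus strand (ENSG00000085662).

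In controls, AKR1B1 had the highest level and lay apart from SLC38A2, which overlapped SLC6A6, followed in separate ranges by SLC5A3, NFAT5 and SLC6A12. In DDX17_KO, the ranges of AKR1B1 and SLC38A2 overlapped. SLC5A3 took the place above SLC6A6 by its mean, and its range overlapped those of both SLC6A6 and SLC38A2. NFAT5 and SLC6A12 again lay below these in separate ranges.

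As a set, the 6 genes held 2 whose groups did not overlap, SLC6A12 higher and SLC6A6 lower in DDX17_KO, a share of 33.3%. Over all tested genes that share was 20.7%, with 8.09% higher and 12.6% lower in DDX17_KO. SLC6A12 reached the abundance limit only through its DDX17_KO libraries. At an adjusted p of 0.05, limma called 0.0384% of tested genes, 0 higher and 6 lower, with 13.5% at an unadjusted p under 0.05. Between libraries of the same replicate number, 4 of the 6 genes were higher in DDX17_KO in all 3 comparisons, which held for 26.2% of tested genes, and SLC6A6 was lower in all 3, which held for 27.7%. Either direction in all 3 held for 53.9% of tested genes. These shares describe the contrast by which the genes were picked. For SLC5A3 the same-number differences in log2(FPKM + 1) were 1.53, 0.58 and 2.91 for replicates 1, 2 and 3. For SLC38A2 they were 0.71, 0.49 and 1.24, for NFAT5 0.39, 0.52 and 0.93, and for SLC6A12 0.30, 0.25 and 0.62. SLC6A6 had -2.27, -0.76 and -0.88, and AKR1B1 had -0.51, -0.19 and 0.83. SLC5A3, SLC38A2, NFAT5 and SLC6A12 had their widest gap in replicate 3, and SLC6A6 in replicate 1.

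**Figure D4:**
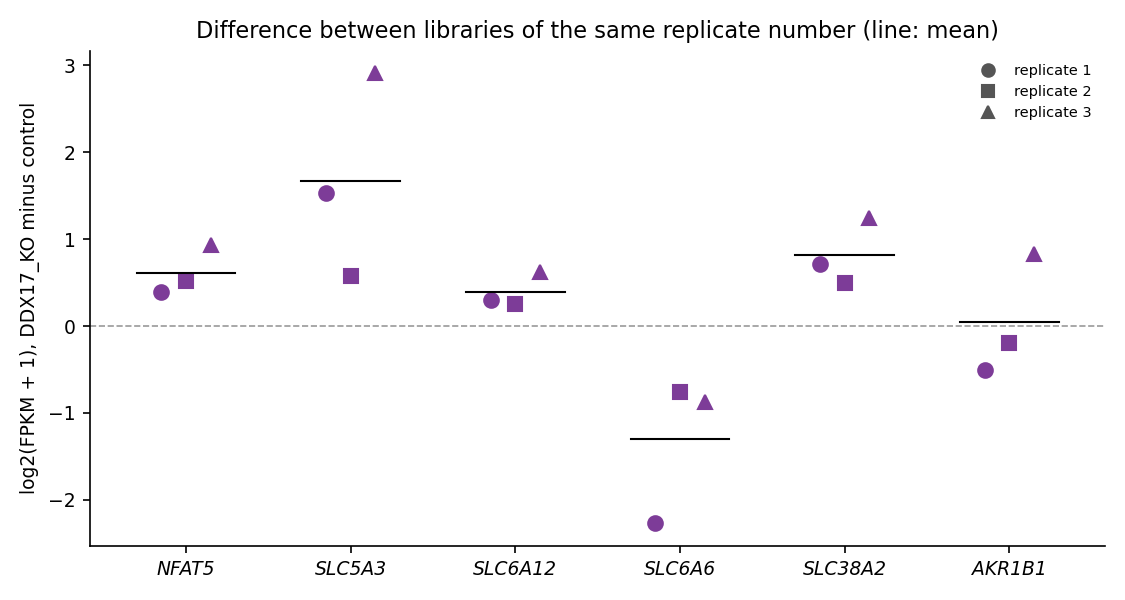
Difference in log2(FPKM + 1), DDX17_KO minus control, between libraries of the same replicate number, with 1 point per number and a line at the mean for each gene. NFAT5, SLC5A3, SLC6A12 and SLC38A2 lie above 0 in all 3 numbers, SLC6A6 lies below 0 in all 3, and AKR1B1 lies on both sides.

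Within each group, SLC5A3, NFAT5 and SLC38A2 were lowest in the library numbered 2, a pattern that 27.3% of tested genes shared. Their longest transcripts have 38.3%, 40.4% and 38.1% GC, while those of SLC6A6, AKR1B1 and SLC6A12 have 51.0%, 53.5% and 55.4%. SLC6A6 and AKR1B1 were instead highest in control replicate 2. After the correction for GC content and length, SLC5A3 stood at 4.14, 2.89 and 5.15 on the log2 scale in DDX17_KO, against 3.11, 2.51 and 2.86 in controls. DDX17_KO replicate 2 was thus still the lowest knockout library and still below control replicate 1. Corrected SLC6A6 was 2.32, 4.22 and 3.76 in DDX17_KO and 4.53, 4.88 and 4.57 in controls, again without overlap. Corrected NFAT5 was 1.18, 1.6 and 1.46 in DDX17_KO and 1.33, 1.3 and 1.19 in controls, and replicate 2 was no longer the lowest of either group. Corrected SLC38A2 was 6.0, 5.21 and 6.33 in DDX17_KO and 5.56, 4.8 and 5.44 in controls, with replicate 2 still the lowest of both groups.

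Further genes of osmolyte handling, NFAT5 regulation, other NFAT5 targets and related transport were grouped by role in 9 lists of 122 genes. Of these, 76 were abundant enough to test. By limma, 0 were higher and 0 lower in DDX17_KO at the adjusted threshold, and 10 had an unadjusted p under 0.05, 3 higher and 7 lower, beside 6.31% higher and 7.19% lower over all tested genes. With the replicate number as a block, that unadjusted count was 34 of 76, beside 28.6% of all tested genes (15.1% higher and 13.4% lower). At the adjusted threshold 0 again passed, where 0.0256% of all tested genes passed, each of them lower. There was no overlap between the groups for 15 of the 76, a share of 19.7% beside 20.7% of all tested genes. The median log2 fold change was -0.16, beside -0.03 over all tested genes. Without DDX17_KO replicate 2, SLC22A4 passed as lower and AKR1C1 as higher, where 3.66% of all tested genes passed, 1.95% as higher and 1.72% as lower. Without both libraries numbered 2, 8 of the 76 (AKAP13, ATM, HSPA4L, LRRC8D, PRKDC, PTPN11, SLC38A1 and WNK1) passed as higher and SLC22A4 as lower, where 8.81% of all tested genes passed, 5.51% as higher and 3.3% as lower.

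In myo-inositol transport and metabolism, 7 of 10 genes were tested and 0 passed in either direction, with a median log2 fold change of 0.12. IMPA2, an enzyme that frees myo-inositol from its phosphate, had 15.1, 18.1 and 12.1 FPKM in DDX17_KO and 16.9, 30.1 and 19.3 FPKM in controls (log2 fold change -0.50, limma adjusted p = 0.402). ITPK1, an inositol phosphate kinase gene, had 6.10, 8.97 and 5.92 FPKM in DDX17_KO and 8.77, 11.3 and 9.03 FPKM in controls (-0.43, adjusted p = 0.388). SLC2A13, another inositol carrier of this list, was named after its values were seen. It had 2.647, 1.825 and 2.942 FPKM in DDX17_KO and 1.965, 1.327 and 1.597 FPKM in controls, with overlapping groups (0.39, adjusted p = 0.391). The second sodium-coupled inositol carrier, SLC5A11, and the inositol oxygenase MIOX were near 0 in every library, and the synthase ISYNA1 did not exceed 0.525 FPKM in any library. Of the other members of the SLC5 family, SLC5A6, the vitamin carrier, was the 1 tested gene of 10, at 3.32, 6.51 and 1.74 FPKM in DDX17_KO and 4.42, 5.91 and 2.56 FPKM in controls (-0.19, adjusted p = 0.812).

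In betaine, choline and glycerophosphocholine metabolism, 9 of 12 genes were tested and 0 passed, with a median of 0.00. The betaine-using enzyme genes BHMT and BHMT2 were listed at 0 in all 6 libraries. PNPLA6, the phospholipase that forms glycerophosphocholine, had 16.3, 21.5 and 13.4 FPKM in DDX17_KO and 20.5, 26.1 and 21.8 FPKM in controls (-0.41, limma adjusted p = 0.407). GPCPD1, which breaks glycerophosphocholine down and was named after its values were seen, had 3.05, 1.48 and 1.81 FPKM in DDX17_KO and 1.2, 0.46 and 1.2 FPKM in controls (0.67, adjusted p = 0.369). SLC22A4, the ergothioneine carrier, also named after its values were seen, had 0.942, 1.67 and 1.04 FPKM in DDX17_KO and 3.86, 3.06 and 2.80 FPKM in controls (-0.94, adjusted p = 0.244). CHKA, choline kinase, had 5.50, 9.84 and 10.1 FPKM in DDX17_KO and 10.7, 12.4 and 9.29 FPKM in controls (-0.35, adjusted p = 0.501).

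Among genes of taurine, GABA and creatine transport and taurine synthesis, 6 of 12 were tested and 0 passed, with a median of -0.35. SLC6A8, the creatine carrier and a relative of SLC6A6, had 11.1, 10.7 and 12.9 FPKM in DDX17_KO and 15.6, 21.4 and 17.7 FPKM in controls (-0.61, limma adjusted p = 0.347). Its groups did not overlap. SLC16A6, a monocarboxylate carrier reported to export taurine, had 20.9, 19.1 and 21.2 FPKM in DDX17_KO and 19.5, 10.6 and 18.2 FPKM in controls (0.36, adjusted p = 0.479). CDO1, the first enzyme of taurine synthesis from cysteine, was at or near 0 in every library. ADO and CSAD, also of this list, were expressed and were named after their values were seen. ADO had 11.83, 10.61 and 10.55 FPKM in DDX17_KO and 12.69, 14.51 and 14.15 FPKM in controls, without overlap (-0.30, adjusted p = 0.415). CSAD had a mean of 1.18 FPKM in DDX17_KO and 1.34 FPKM in controls (-0.09, adjusted p = 0.802).

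In the sorbitol and polyol list, 6 of 8 genes were tested, 0 passed in either direction, and the median was -0.47. Of these, 4 had no overlap between the groups, with KHK (fructokinase), AKR1A1 and AKR7A2 lower and AKR1C1 higher in DDX17_KO, beside 12.6% of all tested genes lower and 8.09% higher without overlap. KHK, AKR1A1, AKR1C1 and SORD were named after their values were seen. SORD, sorbitol dehydrogenase, had 6.16, 8.93 and 5.68 FPKM in DDX17_KO and 8.65, 9.89 and 8.39 FPKM in controls. Its groups overlapped (-0.35, limma adjusted p = 0.431). AKR7A2, an aldehyde reductase, had 8.83, 12.04 and 6.44 FPKM in DDX17_KO and 13.0, 17.0 and 13.1 FPKM in controls (-0.63, limma adjusted p = 0.369). AKR1C3, a reductase of steroids and prostaglandins, had 17.8, 32.1 and 44.0 FPKM in DDX17_KO and 16.7, 19.9 and 15.7 FPKM in controls (0.73, adjusted p = 0.37). AKR1C1, its close relative, had 6.77, 4.21 and 14.7 FPKM in DDX17_KO and 2.61, 3.06 and 2.60 FPKM in controls (1.2, adjusted p = 0.34). The AKR1C genes are near-identical in sequence, which makes the share of fragments given to each uncertain.

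Among the SLC38 family and other neutral amino acid carriers, 10 of 15 were tested and 0 passed, with a median of -0.09. SLC7A5, the heavily expressed exchanger of large neutral amino acids, had 325, 571 and 389 FPKM in DDX17_KO and 394, 539 and 442 FPKM in controls (-0.13, limma adjusted p = 0.813). SLC1A5, the glutamine carrier, had 31.8, 59.2 and 38.8 FPKM in DDX17_KO and 40.1, 77.7 and 59.1 FPKM in controls (-0.44, adjusted p = 0.501). SLC38A1, the nearest relative of SLC38A2 and named after its values were seen, had 75.2, 32.6 and 87.8 FPKM in DDX17_KO and 43.0, 16.9 and 40.0 FPKM in controls (0.94, adjusted p = 0.391). Like SLC38A2, it was lowest in the library numbered 2 of each group, and without both of these libraries it passed the limma threshold at 0.96.

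Among the NFAT family and regulators of NFAT5, 12 of 15 were tested and 0 passed, with a median of -0.10. PRKDC, the catalytic subunit of DNA-dependent protein kinase, had 150, 49.0 and 122 FPKM in DDX17_KO and 56.1, 22.4 and 50.5 FPKM in controls (1.25, limma adjusted p = 0.369). Without both libraries numbered 2 it passed at 1.33. DHX9, RNA helicase A, a known partner of NFAT5, had 70.0, 52.0 and 74.4 FPKM in DDX17_KO and 62.3, 28.2 and 58.2 FPKM in controls (0.46, adjusted p = 0.495). Of other NFAT5 targets, 6 of 15 were tested and 0 passed, with a median of -0.31. S100A4, a calcium-binding protein gene tied to cell migration, had 70.2, 83.0 and 92.7 FPKM in DDX17_KO and 100.1, 135 and 99.96 FPKM in controls (-0.44, adjusted p = 0.383), without overlap. SGK1, a kinase gene induced by hypertonicity, had 10.6, 12.9 and 7.15 FPKM in DDX17_KO and 14.0, 11.3 and 14.2 FPKM in controls (-0.37, adjusted p = 0.459). The heat shock genes HSPA1A and HSPA1B stayed under 0.5 FPKM in every library.

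Among genes of cell volume, chloride and sodium transport, 19 of 25 were tested and 0 passed, with a median of -0.15. ATP1B1, which encodes a beta subunit of the sodium pump, had 112, 93.8 and 203 FPKM in DDX17_KO and 154, 152 and 143 FPKM in controls (-0.21, limma adjusted p = 0.712). LRRC8D, a subunit of the volume-regulated channel that releases osmolytes, was named after its values were seen, at 12.5, 7.12 and 14.1 FPKM in DDX17_KO and 7.63, 0.657 and 7.83 FPKM in controls (1.23, adjusted p = 0.395). Without both libraries numbered 2 it passed at 0.70. The other tested LRRC8 genes lay the other way, LRRC8A at -0.40 (adjusted p = 0.446) and LRRC8E at -0.35 (adjusted p = 0.448). LRRC8B and LRRC8C were not abundant enough to test. LRRC8B had 0.9338, 0.4702 and 0.7055 FPKM in DDX17_KO and 0.3771, 0.1434 and 0.3392 FPKM in controls, higher without overlap. LRRC8C did not exceed 0.1825 FPKM, and its groups overlapped.

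**Figure D5:**
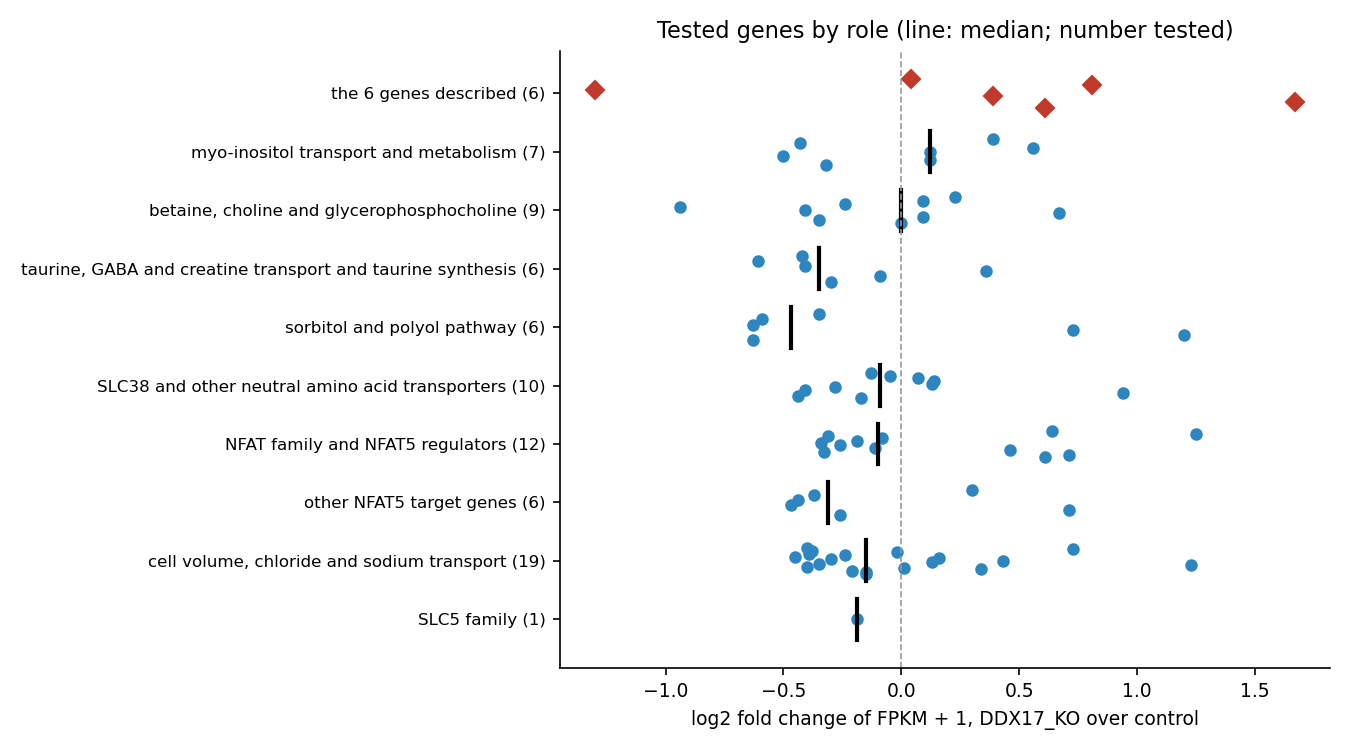
log2 fold change of FPKM + 1, DDX17_KO over control, for the 6 genes described (diamonds) and 76 further tested genes by role (points), with a line at the median of each list and the number tested in parentheses. The list medians lie between -0.47 and 0.12, and single list genes run from -0.94 for SLC22A4 to 1.25 for PRKDC. The 6 genes, which were picked by this contrast, run from -1.30 for SLC6A6 to 1.67 for SLC5A3.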

How the data were processed

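Total RNA of 3 DDX17_KO and 3 control MHCC97H libraries was sequenced, and groups and replicate numbers came from the titles. The authors deposited 1 table with an FPKM value for each gene in each library. CASAVA 1.8, HISAT2, StringTie and edgeR appear in the submitters' processing notes, with build hg38 and without roles, and the annotation release and strand setting were not given in the sources used here. Both the 6 genes and the lists were chosen with earlier results of these data known.

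Depth was estimated from the steps between low FPKM values of genes with 1 transcript. With that estimate, 99.4% to 99.7% of values up to 20 fragments lay within 0.05 of a whole number. Fragment numbers bear on counting error only, while the values after ± are SDs between libraries or SEs of the limma fit. Transcript lengths, GC content and loci of overlapping genes came from GENCODE release 29, which holds 58039 of the 58302 rows.

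limma 3.58.1 in R 4.3.3 was fitted to log2(FPKM + 1) with an intensity trend over the 15620 genes whose mean reached 0.5 FPKM. Tests were two-sided with Benjamini-Hochberg adjustment over all of these and a threshold of 0.05. The step was tested on simulated data. Python 3.11.15 and pandas 2.3.3 read the table. Named genes were the 6, tested genes overlapping them, DDX17, per list the genes past the threshold and the 2 most abundant, and the 5 closest to SLC5A3. A gene that this rule names is not reported here. Promoters for 3 of the 6 genes came from RefSeq (GRCh38.p14).

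The replicate numbers were checked as pairs. Deviations from the group means correlated at 0.3, 0.546 and 0.214 over genes for numbers 1, 2 and 3, while DDX17_KO replicate 3 correlated with control replicate 1 at 0.329. Any pairing comes from these data, not from the labels. Alternatives were pseudocounts, scaling, filters, the replicate block, no trend, left-out libraries and a GC and length correction by splines with 4 degrees of freedom. That correction together with the block was added after seeing the data.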

Additional observations from a re-analysis of the deposited data

How the results depend on the processing

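Of 15620 genes, 6 passed in the reported fit. The count was 3 with no filter on low values, 11 after the GC and length correction, 1376 without both libraries numbered 2, and from 3 to 572 with single libraries left out. Of the 76 tested genes of the 9 lists, 0 passed in the reported fit, 9 without both libraries numbered 2, and 0 to 2 with single libraries left out. The replicate block gave 4 genes overall and 0 of the 76, and changed no call among the 76 or for MRPS6 and AC009032.1. The log2 fold change of SLC5A3 ran from 0.98 to 2.55 with single libraries left out and kept its sign in all 15 alternatives, as did those of SLC6A6, SLC6A12, NFAT5 and SLC38A2. That of AKR1B1 ran from -0.20 to 0.36. These genes were picked by this contrast, so a kept sign is a description only. After the GC and length correction NFAT5 was at 0.14 ± 0.15 (SE), so its sign is uncertain there. The cause of these shifts was not tested. Scaling moved the median of all genes by less than 0.1. Depth limits SLC6A12 most, at 3.27 fragments per kilobase in DDX17_KO replicate 2 and 2.79 in control replicate 1. NFAT5 followed at 7.28 in DDX17_KO replicate 2, over a much longer transcript of 14219 bases. In DDX17_KO replicate 2, 1 fragment per kilobase is worth 0.187 FPKM.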
